A study of Mus musculus with 27 samples.

Results

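The TGF-β ligands, receptors and latency proteins were followed in cardiac fibroblasts and whole hearts from birth to old age. The group held 10 of the 22855 genes counted, found by symbol in both count tables. These were the 3 ligand genes Tgfb1, Tgfb2 and Tgfb3, the 3 receptor genes Tgfbr1, Tgfbr2 and Tgfbr3, and the 4 latent TGF-β binding protein genes Ltbp1, Ltbp2, Ltbp3 and Ltbp4. RNA-Seq was performed on 12 samples of PDGFRα cardiac fibroblasts, isolated by flow cytometry from dissociated hearts, and on 15 samples of whole heart. All animals were C57Bl/6 mice with no treatment named in the labels, at postnatal day 1 (P1), 4 weeks, 14 weeks, 1 year, or 1.5 years of age. Fibroblasts had 3 samples at P1 and at 4 weeks and 2 at each later age, and whole hearts had 3 at every age. The sorted cells are those that carry PDGFRα at the surface, and the whole heart samples hold all cardiac cell types. Per the paper, cells were isolated from ventricles, without atria or valves. Whether the whole heart samples were trimmed in the same way is not stated. In the whole heart, fewer cells of a type and less RNA per cell cannot be told apart.

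TGF-β is secreted as a latent dimer that is wrapped in its own propeptide and is tethered, through the latent TGF-β binding proteins, to fibrillin and fibronectin in the matrix. Once released by integrins, proteases or other activators, the ligand binds the type II receptor (Tgfbr2), which recruits and phosphorylates the type I receptor kinase (Tgfbr1), and SMAD2 and SMAD3 carry the signal to the nucleus. Betaglycan (Tgfbr3) is a co-receptor that presents ligand, TGF-β2 in particular. In the heart the pathway is best known for driving fibroblasts to deposit matrix after injury.

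Fibroblast libraries held between 54615898 and 76758831 counts, and whole heart libraries between 46091271 and 67984404. The lowest count of any of the 10 genes in any sample was 104, and all 10 passed the filter on low counts in both tissues. The fibroblast samples carried the fibroblast markers at a summed level between 18401 and 28714 CPM (read counts relative to library size), compared with 722 to 1251 CPM in whole hearts, for 8 genes that include Pdgfra, Tcf21 and Col1a1. The 7 cardiomyocyte markers summed to between 622 and 689 CPM in the P1 fibroblasts, 11.9 to 159 CPM in the later fibroblasts, and 30993 to 66752 CPM in whole hearts. The 9 endothelial markers were uneven among fibroblast samples. They summed to 2041 CPM in 4-week replicate 3, 1674 and 1367 CPM at 14 weeks, and 1441 CPM in 1.5-year replicate 5, and to between 333 and 725 CPM in the other fibroblast samples. The 8 genes of the response to dissociation, such as Fos and Hspa1a, summed to 11217 to 15665 CPM in P1 fibroblasts and 25747 to 38730 CPM in the later ones. In whole hearts, transcripts over 5000 bases were lower against those under 2000 bases in the 1.5-year samples (log2 differences from the average sample of -0.37, -0.78 and -1.26) than in the other hearts, which ranged from -0.27 to 0.53. In fibroblasts the same log2 difference was -0.15 to -0.10 at P1, 0.05 to 0.15 at 4 weeks, and 0.18 and 0.19 at 14 weeks. It was -0.30 and -0.18 at 1 year and -0.22 and -0.11 at 1.5 years. The part of these differences in the results below was not tested beyond values with samples left out or with a transcript length offset.

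The genes are spread over the genome, and the neighbourhoods differ in what lies on top of them. Tgfb1 (ENSMUSG00000002603.15, chr7:25687002-25705077, plus strand) and Ltbp4 (ENSMUSG00000040488.17, chr7:27305136-27337692, minus strand) share a chromosome, as do Tgfb3 (ENSMUSG00000021253.7, chr12:86056745-86079041, minus strand) and Ltbp2 (ENSMUSG00000002020.15, chr12:84783212-84876532, minus strand). Tgfb2 (ENSMUSG00000039239.14) lies at chr1:186622792-186705989 on the minus strand. The receptors are at chr4:47353222-47414931 on the plus strand (Tgfbr1, ENSMUSG00000007613.15), chr9:116084293-116175360 on the minus strand (Tgfbr2, ENSMUSG00000032440.13), and chr5:107106570-107289629 on the minus strand (Tgfbr3, ENSMUSG00000029287.14). Ltbp1 (ENSMUSG00000001870.16) is at chr17:75005568-75392512 and Ltbp3 (ENSMUSG00000024940.11) at chr19:5740904-5758532, both on the plus strand. All positions are of the GRCm38 build. No annotated gene overlaps Tgfb1, Tgfbr1, Tgfbr2 or Ltbp4. The span of Tgfb2 holds the antisense gene Gm29491 and that of Ltbp2 the antisense gene D030025P21Rik, and Tgfb3 overlaps Ttll5 on the opposite strand. Whether the counting used strand is not given in the sources used here, so reads of these 3 genes may include some of the overlapping gene. Tgfbr3 and Ltbp1 also overlap small annotated genes or pseudogenes.

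The promoters of 2 ligands and 2 binding proteins are shown because these genes mark the opposite and the largest changes in fibroblasts between P1 and 4 weeks, where Tgfb1 rose, Tgfb2 fell, and Ltbp1 and Ltbp2 rose most. The 250 bases before an annotated start come from RefSeq on GRCm38.p6, at chr7:25686752-25687001 on the plus strand for Tgfb1, chr1:186705990-186706239 on the minus strand for Tgfb2, chr17:75005279-75005528 on the plus strand for Ltbp1, and chr12:84876492-84876741 on the minus strand for Ltbp2. RefSeq windows were matched for 8 of the 10 genes. Each window is written 5′ to 3′ on the gene's own strand, and capitals mark matches, on either strand, to the TATA box (TATAAA), the cyclic AMP response element (TGACGTCA), the AP-1 site (TGAGTCA), the SMAD box (CAGAC), the GC box (GGGCGG) and the CCAAT box (CCAAT).
Tgfb1: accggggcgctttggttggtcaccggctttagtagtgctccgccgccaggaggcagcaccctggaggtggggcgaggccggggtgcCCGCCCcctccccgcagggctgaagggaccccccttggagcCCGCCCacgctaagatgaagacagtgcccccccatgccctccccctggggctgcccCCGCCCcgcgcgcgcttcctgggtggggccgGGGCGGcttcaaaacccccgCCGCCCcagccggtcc
Tgfb2: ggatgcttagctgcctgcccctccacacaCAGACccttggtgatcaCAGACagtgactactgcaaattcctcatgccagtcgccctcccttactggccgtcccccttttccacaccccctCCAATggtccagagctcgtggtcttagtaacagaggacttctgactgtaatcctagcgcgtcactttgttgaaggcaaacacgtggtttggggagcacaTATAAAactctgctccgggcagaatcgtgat
Ltbp1: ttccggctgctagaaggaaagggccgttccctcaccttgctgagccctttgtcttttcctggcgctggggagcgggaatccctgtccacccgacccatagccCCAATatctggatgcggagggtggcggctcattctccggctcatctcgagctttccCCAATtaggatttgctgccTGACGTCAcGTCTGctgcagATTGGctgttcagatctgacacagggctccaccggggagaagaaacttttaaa
Ltbp2: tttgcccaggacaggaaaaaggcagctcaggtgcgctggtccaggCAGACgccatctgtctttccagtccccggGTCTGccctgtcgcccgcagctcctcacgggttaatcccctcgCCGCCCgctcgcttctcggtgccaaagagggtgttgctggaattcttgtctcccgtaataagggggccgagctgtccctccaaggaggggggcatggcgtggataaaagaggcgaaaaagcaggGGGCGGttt
The Tgfb1 window held 5 GC boxes and none of the other motifs. In the Tgfb2 window there were a TATA box, 31 bases before the start, a CCAAT box and 2 SMAD boxes, with no GC box. The Ltbp1 window shown carried a cyclic AMP response element 73 bases before the start, a SMAD box and 3 CCAAT boxes. RefSeq gives another Ltbp1 window, at chr17:75178531-75178780, which held 2 SMAD boxes and none of the other motifs. Which start these cells use was not tested. The Ltbp2 window had 2 SMAD boxes and 2 GC boxes. None of the 4 windows shown had an AP-1 site. Such short motifs are common: of 32851 RefSeq windows, 42.2% held a SMAD box, 33.8% a CCAAT box, 32.7% a GC box, 12.4% a TATA box, 4.46% an AP-1 site and 1.55% a cyclic AMP response element. A match describes the letters and does not show that a factor binds there.

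All 10 genes differed between P1 and 4 weeks in fibroblasts, 8 of them higher and 2 lower at 4 weeks. In the same comparison 15.5% of the 18759 genes tested passed the threshold, 9.28% higher and 6.2% lower (threshold of 0.05 on the adjusted p, from the quasi-likelihood F test of edgeR). The median log2 fold change of the 10 genes was 0.76 and that of all genes tested was 0.00. Of the sex-linked genes, Xist was at 137 to 276 CPM in P1 fibroblasts and 379 to 590 CPM at 4 weeks. The Ddx3y ranges overlapped (31.6 to 36.3 and 24.8 to 50.8 CPM). The dissociation response summed to 11217 to 15665 CPM at P1 and 25778 to 28120 CPM at 4 weeks. The part of the mix of sexes or of that response was not tested. In whole hearts 2 of the 10 changed in this interval, Ltbp4 upward and Tgfb2 downward, where 18.2% of 17995 genes passed (12.1% higher and 6.1% lower), and the medians were 0.25 and -0.09. Over all ages together, 9 of the 10 differed in fibroblasts (19.9% of genes) and 2 in whole hearts, Tgfb2 and Ltbp4 (34.3% of genes). Tgfbr1 was the gene that did not pass in fibroblasts (adjusted p = 0.0663). Levels are CPM after scaling by the TMM method within each tissue, and replicates are listed in the order of their numbers.

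Among the ligands, Tgfb1 and Tgfb3 rose in fibroblasts after P1 while Tgfb2 fell. Tgfb1, the isoform most often studied in fibrosis, was at 66.7, 57.7 and 57.7 CPM at P1, 74.4, 108 and 105 at 4 weeks, 98.7 and 101 at 14 weeks, 145 and 97.4 in mice of 1 year, and 105 and 94.2 in mice of 1.5 years in fibroblasts. All P1 samples lay below all later ones. The change from P1 to 4 weeks was 0.66 on the log2 scale (SE 0.18, adjusted p = 0.0222), and the call was lost without P1 replicate 2 or 3 or 4-week replicate 2 or 3 (adjusted p between 0.0665 and 0.0831). At 1.5 years Tgfb1 was higher than at P1 as well (log2 fold change 0.72, SE 0.19, adjusted p = 0.0223), which was lost without P1 replicate 2 or 3 or either 1.5-year sample (adjusted p between 0.0614 and 0.139). No step after 4 weeks was past the threshold for Tgfb1, with log2 fold changes of 0.06, 0.28 and -0.00 for 14 weeks over 4 weeks, 1 year over 14 weeks, and 1.5 years over 14 weeks.

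Tgfb2, the isoform needed for heart valve and septum development, was at 139, 122 and 113 CPM at P1, 74.4, 51.8 and 84.5 at 4 weeks, 86.7 and 87.5 at 14 weeks, 84.1 and 83.8 in mice of 1 year, and 98.8 and 82.0 in mice of 1.5 years in fibroblasts. The 3 P1 samples stood above every later sample. Its mean was 125 ± 13.3 (SD, n = 3) CPM at P1 and 70.2 ± 16.7 (SD, n = 3) in 4-week mice, a fall (log2 fold change -0.83, SE 0.17, adjusted p = 0.00486), and this held without any single sample (log2 fold change between -0.98 and -0.65). The samples from 14 weeks onward sat between 82.0 and 98.8 CPM, with no step past the threshold, and the difference between 1.5 years and P1 was -0.46 (SE 0.19, adjusted p = 0.129). Library-size scaling brought that difference past the threshold (-0.68, adjusted p = 0.0273), as did leaving out 4-week replicate 2 (adjusted p = 0.0493). Tgfb3, which uses the same receptors, was at 142, 160.1 and 133 CPM at P1, 283, 229 and 189 at 4 weeks, 175 and 180.2 at 14 weeks, 296 and 221 in mice of 1 year, and 197 and 148 in mice of 1.5 years. All 4-week samples were above all P1 samples, whereas the P1 and 1.5-year ranges overlapped. The rise from P1 to 4 weeks (log2 fold change 0.69, SE 0.17, adjusted p = 0.0163) was lost without P1 replicate 3 (adjusted p = 0.0618) or 4-week replicate 1 (adjusted p = 0.0746). Against P1 the 1.5-year samples differed by 0.25 (SE 0.19, adjusted p = 0.431).

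The balance between the ligands shifted within each fibroblast sample. The ratio of Tgfb3 to Tgfb2 CPM was 1.02, 1.31 and 1.18 at P1 and 3.81, 4.43 and 2.24 at 4 weeks, and it lay between 1.80 and 3.51 at the later ages. No later sample was as low as P1. The ratio of Tgfb1 to Tgfb2 was 0.480, 0.472 and 0.513 at P1 and between 1.00 and 2.09 in every later sample. These ratios do not depend on the scaling of a library, and since they set different genes side by side only their change with age is read.

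**Figure D1:**
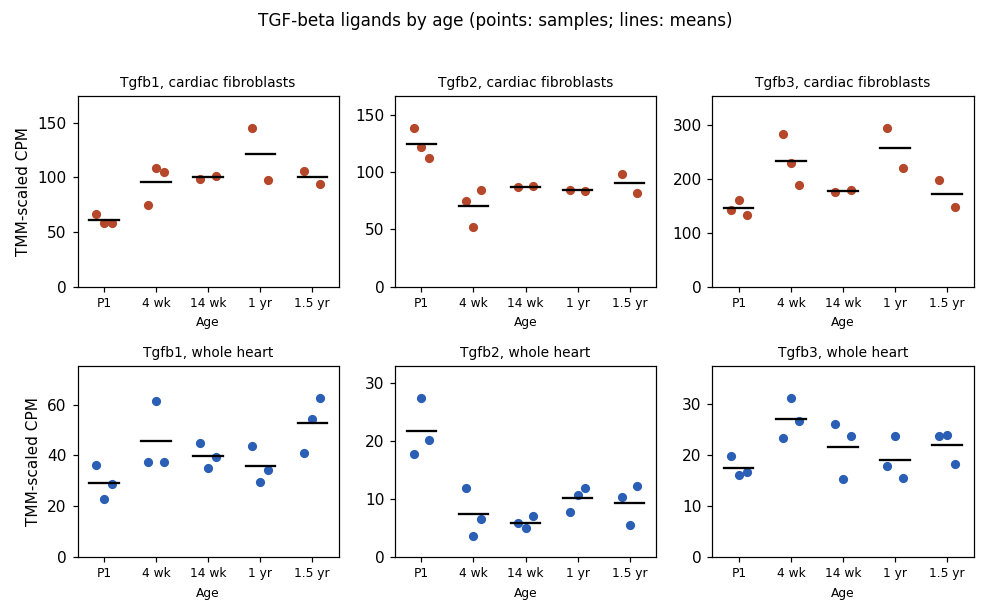
TMM-scaled CPM of Tgfb1, Tgfb2 and Tgfb3 (y axes, each from 0) by age (x axis) in cardiac fibroblasts (upper row) and whole hearts (lower row), with 1 point per sample and a line at the mean. In fibroblasts the 3 P1 samples of Tgfb2, at 139, 122 and 113, lie above all later samples, and those of Tgfb1, at 57.7 to 66.7, lie below them.

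In whole hearts Tgfb2 fell after P1 as it did in fibroblasts. It was at 17.7, 27.5 and 20.2 CPM at P1, 11.9, 3.64 and 6.60 at 4 weeks, 5.81, 4.88 and 7.03 at 14 weeks, 7.77, 10.6 and 11.9 in mice of 1 year, and 10.4, 5.42 and 12.2 in mice of 1.5 years. All P1 hearts were above all later hearts. The log2 fold change from P1 to 4 weeks was -1.56 (SE 0.40, adjusted p = 0.0106). Without P1 replicate 2 it was -1.36 (adjusted p = 0.0554), and without 4-week replicate 2 and 1.5-year replicate 3, which have fewer long transcripts than the other samples of their ages, it was -1.24. At 1.5 years Tgfb2 was lower than at P1 (log2 fold change -1.22, SE 0.39, adjusted p = 0.0263), a call lost without P1 replicate 2 (adjusted p = 0.131), P1 replicate 3 (0.0586) or 1.5-year replicate 2 (0.104), and with an offset for transcript length (0.0734).

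Tgfb1 in whole hearts was at 36.3, 22.8 and 28.7 CPM at P1, 37.5, 61.6 and 37.5 at 4 weeks, 44.7, 34.9 and 39.5 at 14 weeks, 43.6, 29.6 and 34.3 in mice of 1 year, and 41, 54.5 and 62.7 in mice of 1.5 years. The P1 and 4-week ranges were apart, but the change of 0.64 did not pass the threshold (SE 0.24, adjusted p = 0.0773). At 1.5 years it was higher than at P1 (log2 fold change 0.85, SE 0.24, adjusted p = 0.0124). This call was lost without P1 replicate 2 (adjusted p = 0.055) or 1.5-year replicate 3 (0.0525), and with scaling by library size only, under which Tgfb1 changed by 0.25 (adjusted p = 0.442) while the median of all genes moved to -0.75. The TMM factors of the P1 hearts were 1.40 to 1.47, compared with 0.787 to 1.05 in later hearts. The 7 macrophage markers summed to 47.2 to 51.3 CPM in P1 hearts and 351 to 450 CPM at 1.5 years, with 7 called higher. For the 4 leukocyte markers the sums were 5.15 to 8.84 and 32.3 to 41.1 CPM, with 2 called higher. The part of these cells in the Tgfb1 difference was not tested. Tgfb3 in whole hearts ranged from 15.2 to 31.3 CPM over all 15 samples, and no comparison of ages passed the threshold (0.63 from P1 to 4 weeks, SE 0.23, adjusted p = 0.075).

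The receptors did not move together in fibroblasts, where Tgfbr2 and Tgfbr3 rose after P1 and Tgfbr1 fell. Tgfbr2, the ligand-binding type II receptor, was at 280.1, 186 and 229 CPM at P1, 509, 461 and 389.6 at 4 weeks, 467 and 504 at 14 weeks, 644 and 595 in mice of 1 year, and 520.0 and 498 in mice of 1.5 years. Every P1 sample was below every later sample. The change from P1 to 4 weeks was 0.97 (SE 0.15, adjusted p = 0.000774) and that from P1 to 1.5 years was 1.14 (SE 0.17, adjusted p = 0.000389), and both held without any single sample. Tgfbr3, the betaglycan gene, was at 141, 129 and 166 CPM at P1, 341, 366 and 308 at 4 weeks, 417 and 466 at 14 weeks, 372 and 423 in mice of 1 year, and 294 and 309.6 in mice of 1.5 years. Its P1 samples were again the lowest. The rise from P1 to 4 weeks was 1.22 (SE 0.13, adjusted p = 3.15e-05) and held without any single sample. Both 1.5-year samples lay below both 14-week samples, a difference of -0.55 that did not pass the threshold (SE 0.16, adjusted p = 0.0921), and passed it with DESeq2 (adjusted p = 0.0127) or library-size scaling (0.0308).

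Tgfbr1, the type I receptor kinase also known as ALK5, was at 103, 100.3 and 83.8 CPM at P1, 68.0, 67.4 and 58.0 at 4 weeks, 79.2 and 65.6 at 14 weeks, 88.3 and 71.5 in mice of 1 year, and 84.0 and 109 in mice of 1.5 years in fibroblasts. The 4-week samples were all below the P1 samples, and the 1.5-year samples fell within and above the P1 range. The fall from P1 to 4 weeks (log2 fold change -0.57, SE 0.15, adjusted p = 0.0233) was lost without P1 replicate 1 or 2 or 4-week replicate 3 (adjusted p between 0.0632 and 0.0737). The latter sample had the highest endothelial marker sum, and without it and 1.5-year replicate 5 the log2 fold change was -0.50 (adjusted p = 0.0686). The ratio of Tgfbr2 to Tgfbr1 CPM was 2.71, 1.85 and 2.73 at P1, 7.48, 6.84 and 6.72 at 4 weeks, and 4.56 to 8.32 afterwards, so that no later sample reached down to P1.

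No receptor gene passed the threshold in any comparison of ages in whole hearts. Tgfbr2 was between 44.1 and 75.4 CPM in all 15 hearts, and changed by -0.07 from P1 to 4 weeks (SE 0.18, adjusted p = 0.863). With library-size scaling this became -0.58 (adjusted p = 0.0341), close to the median of -0.60 of all genes under that scaling. Tgfbr3 ranged from 15.7 to 57.9 CPM in hearts and was lowest in 1.5-year replicate 3, the heart with the fewest long transcripts. It changed by -0.69 between 14 weeks and 1.5 years (SE 0.27, adjusted p = 0.103). Without 1.5-year replicate 1, which was the highest of that age, it was past the threshold (-1.02, adjusted p = 0.0157), and without 4-week replicate 2 and 1.5-year replicate 3 a rise of 0.55 from P1 to 4 weeks passed it (adjusted p = 0.0483). Tgfbr1 in hearts was at 12.1, 24.6 and 19.0 CPM at P1, 19.1, 3.64 and 12.3 at 4 weeks, 10.9, 13.7 and 12 at 14 weeks, 13.8, 16.8 and 13.4 in mice of 1 year, and 12.4, 11.7 and 1.96 in mice of 1.5 years. Its lowest samples, 4-week replicate 2 and 1.5-year replicate 3, are again hearts with fewer long transcripts. No difference between ages was detectable for Tgfbr1 (-0.67 from P1 to 4 weeks, SE 0.56, and -1.09 from P1 to 1.5 years, SE 0.56), with adjusted p of 0.464 and 0.148. The 1.5-year difference passed with library-size scaling (-1.67, adjusted p = 0.0279).

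**Figure D2:**
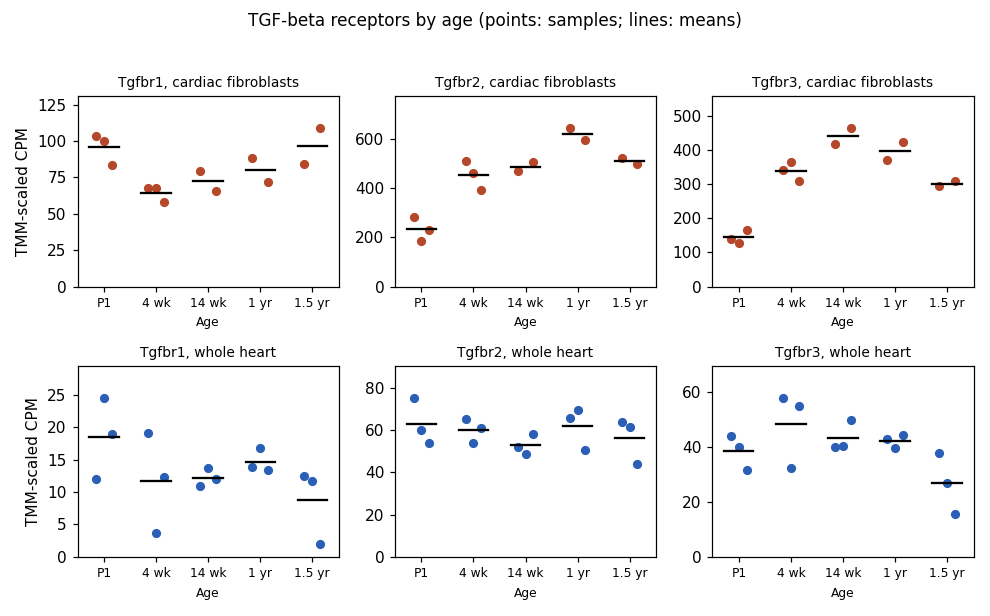
TMM-scaled CPM of Tgfbr1, Tgfbr2 and Tgfbr3 (y axes, each from 0) by age (x axis) in cardiac fibroblasts (upper row) and whole hearts (lower row), with 1 point per sample and a line at the mean. Tgfbr2 and Tgfbr3 are lowest at P1 in fibroblasts, and Tgfbr1 reaches its lowest heart value, 1.96, in 1 sample of 1.5 years.

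All 4 binding protein genes rose in fibroblasts from P1 to 4 weeks, and some rose further. Ltbp1, which anchors the latent complex in the matrix, was at 111, 94.6 and 125 CPM at P1, 265, 269 and 261 at 4 weeks, 379.5 and 428 at 14 weeks, 501 and 532 in mice of 1 year, and 389.9 and 345 in mice of 1.5 years. The ranges of P1, 4 weeks, 14 weeks and 1 year did not overlap, each above the one before, and the 1.5-year samples overlapped those of 14 weeks. The change was 1.27 from P1 to 4 weeks (SE 0.12, adjusted p = 1.75e-05), which held without any single sample. From 4 to 14 weeks it was 0.61 (SE 0.13, adjusted p = 0.0263). The step of Ltbp1 from 14 weeks to 1 year did not pass the threshold (0.36, SE 0.15, adjusted p = 0.339). Ltbp2, which is bound to fibrillin but does not bind latent TGF-β, was at 31.1, 39.3 and 30.3 CPM at P1, 128, 134 and 116 at 4 weeks, 230.1 and 225 at 14 weeks, 631 and 352 in mice of 1 year, and 226 and 182 in mice of 1.5 years. Of the 10 genes it changed most. All 12 samples followed the order of P1, 4 weeks, then later, and 1-year replicate 4 was far above the other 1-year sample. Ltbp2 rose by 1.91 from P1 to 4 weeks (SE 0.20, adjusted p = 2.75e-05), which held without any single sample, and by 0.86 from 4 to 14 weeks (SE 0.21, adjusted p = 0.0419).

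Ltbp1 and Ltbp2 were the 2 of the 10 genes that changed from 4 to 14 weeks in fibroblasts, where 3.87% of genes did (1.79% higher and 2.08% lower). These calls rest on 2 samples at 14 weeks, both with a high endothelial marker sum. The 7 macrophage markers summed to 251 to 486 CPM at 4 weeks and 42.3 to 52.9 CPM at 14 weeks, with 5 called lower. Xist was at 379 to 590 CPM in the 4-week samples and at most 0.0701 in those of 14 weeks, and Ddx3y at 24.8 to 50.8 and 74.9 to 83.3 CPM, so sex and age cannot be told apart here. The part of the endothelial and macrophage differences was not tested. Both calls were lost without 4-week replicate 1 or 2 or either 14-week sample (adjusted p between 0.0621 and 0.316), and that of Ltbp2 also without 4-week replicate 3 (0.0925) or P1 replicate 3 (0.0508). With an offset for transcript length neither passed (0.0698 for Ltbp1 and 0.0624 for Ltbp2).

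Ltbp3, which escorts latent TGF-β through secretion and is needed in bone and teeth, was at 436, 396 and 432 CPM at P1, 682, 659 and 582 at 4 weeks, 492 and 527 at 14 weeks, 1080.1 and 928 in mice of 1 year, and 924 and 739.8 in mice of 1.5 years in fibroblasts. The 1-year and 1.5-year samples were all above every younger sample. Its change from P1 to 4 weeks was 0.60 (SE 0.12, adjusted p = 0.00475) and held without any single sample. Ltbp4, which takes part in elastic fibre assembly and binds latent TGF-β1, was at 4197, 4510.3 and 4904 CPM at P1, 8282, 8497 and 7604 at 4 weeks, 6668 and 7327 at 14 weeks, 7709 and 7853 in mice of 1 year, and 11217 and 10275 in mice of 1.5 years. The P1 samples were lowest and the 1.5-year samples highest, with no overlap with any other age. It rose by 0.84 from P1 to 4 weeks (SE 0.12, adjusted p = 0.000275), again in every fit that left out 1 sample.

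Past 14 weeks, the genes that changed in fibroblasts were all binding proteins. From 14 weeks to 1 year Ltbp2 rose by 1.11 (SE 0.24, adjusted p = 0.0352) and Ltbp3 by 0.98 (SE 0.15, adjusted p = 0.00765), 2 of 10 where 1.78% of genes passed (1.31% higher and 0.474% lower). From 14 weeks to 1.5 years Ltbp3 rose by 0.71 (SE 0.15, adjusted p = 0.0297) and Ltbp4 by 0.62 (SE 0.14, adjusted p = 0.0384), 2 of 10 where 2.72% passed (1.91% higher and 0.816% lower). With library-size scaling Ltbp2 at 1 year and both calls at 1.5 years were lost (adjusted p = 0.0629, 0.0909 and 0.126). The dissociation response summed to 25747 and 28551 CPM at 14 weeks, 30874 and 32976 CPM at 1 year, and 36632 and 38730 CPM at 1.5 years, and its part was not tested. The endothelial markers summed to 1674 and 1367 CPM at 14 weeks, 534 and 725 CPM at 1 year, and 333 and 1441 CPM at 1.5 years. Their part was not tested either. With 2 samples per age these calls were fragile. All 4 were lost without either 14-week sample (adjusted p between 0.0836 and 0.358), both 1-year calls also without 1-year replicate 4 (0.432 and 0.0997), and both 1.5-year calls without 1.5-year replicate 4 (0.209 and 0.15). Without 1-year replicate 4 the log2 fold change of Ltbp2 was 0.63. That of Ltbp2 at 1 year was also lost without 4-week replicate 1 (0.0538), and that of Ltbp4 at 1.5 years without 4-week replicate 1 or 2, either 1-year sample, or 1.5-year replicate 5 (0.0534 to 0.0699). The sexes of the animals are not given, and Xist was at 0.0173 and 0.0701 CPM in the 14-week fibroblasts and at 424 and 429 CPM in those of 1.5 years, so sex and age cannot be told apart in the last comparison.

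Between P1 and 1.5 years, 7 of the 10 genes were higher in fibroblasts, compared with 16.3% of genes past the threshold (9.86% higher and 6.46% lower), and none of the 10 was lower. The 4 binding proteins rose by 1.74, 2.60, 0.98 and 1.24 (Ltbp1 to Ltbp4, SE 0.13 to 0.21, adjusted p at most 0.000247), and each held without any single sample. Tgfb1, Tgfbr2 and Tgfbr3 were the other 3 genes. The Y-linked gene Ddx3y was at 31.6 to 36.3 CPM in P1 fibroblasts and at most 0.0813 CPM at 1.5 years, and the part of sex in this comparison was not tested.

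**Figure D3:**
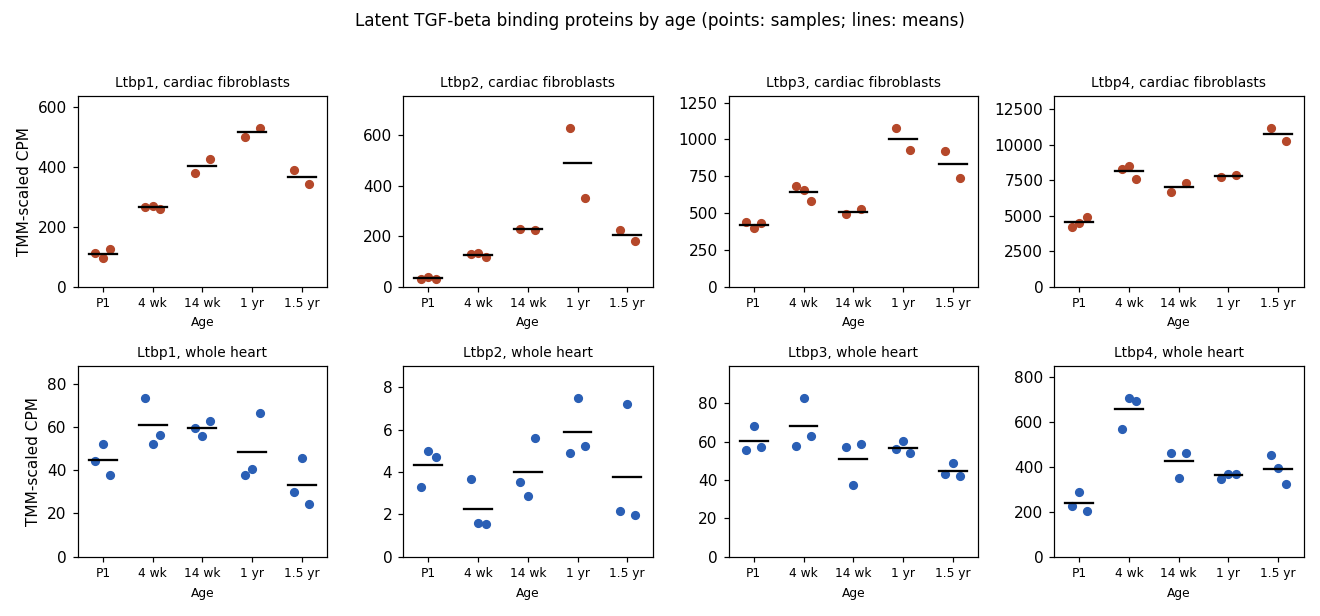
TMM-scaled CPM of Ltbp1 to Ltbp4 (y axes, each from 0) by age (x axis) in cardiac fibroblasts (upper row) and whole hearts (lower row), with 1 point per sample and a line at the mean. In fibroblasts Ltbp1 lies at 501 and 532 at 1 year and Ltbp4 is highest at 1.5 years. In hearts Ltbp4 peaks at 4 weeks, at 571 to 709.

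In whole hearts Ltbp4 was the binding protein gene that changed early. It was at 224, 290.3 and 206 CPM at P1, 571, 709 and 695 at 4 weeks, 461, 352 and 464 at 14 weeks, 349, 371 and 369 in mice of 1 year, and 454, 396 and 324 in mice of 1.5 years. The 4-week hearts were above all others and the P1 hearts below all others. The rise from P1 to 4 weeks (log2 fold change 1.45, SE 0.17, adjusted p = 1.1e-05) held without any single sample and with library-size scaling (0.94). Ltbp4 differed by -0.63 between 4 and 14 weeks, short of the threshold (SE 0.17, adjusted p = 0.0735), and this passed with DESeq2 (adjusted p = 0.00537), with a minimum of 10 counts in every sample (0.0362), with the length offset (0.0369), with library-size scaling (0.0282), and without 1.5-year replicate 3 (0.0425). At 1.5 years it was still above P1 (log2 fold change 0.70, SE 0.17, adjusted p = 0.00387), but not with library-size scaling (0.10, adjusted p = 0.716, with the median of all genes at -0.75).

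Ltbp1 was the 1 gene of the 10 that differed between 14 weeks and 1.5 years in whole hearts, where 12.8% of genes did (4.91% higher and 7.86% lower). It was at 44.4, 52.1 and 37.6 CPM at P1, 73.5, 52.4 and 56.3 at 4 weeks, 59.4, 56.0 and 62.8 at 14 weeks, 37.8, 40.8 and 66.4 in mice of 1 year, and 30.0, 45.8 and 24.2 in mice of 1.5 years. The 1.5-year hearts were all below the 14-week hearts (log2 fold change -0.83, SE 0.25, adjusted p = 0.035). The call was lost without P1 replicate 1, any 14-week sample, or 1.5-year replicate 1 or 3 (adjusted p between 0.0534 and 0.147). With the length offset the difference was -0.24 (adjusted p = 0.577), and age and the lower level of long transcripts at 1.5 years cannot be told apart. Xist was at most 0.414 CPM in the 14-week hearts and at least 34.8 CPM at 1.5 years, so sex and age cannot be told apart either. Between P1 and 1.5 years 3 of the 10 genes differed, Tgfb1 and Ltbp4 higher and Tgfb2 lower, where 31.8% of genes did (15.6% higher and 16.3% lower). With library-size scaling this became 0 higher and 6 lower, as Tgfb1 and Ltbp4 no longer passed (adjusted p = 0.442 and 0.716) and Tgfbr1, Tgfbr2, Tgfbr3, Ltbp1 and Ltbp3 passed with negative changes (-1.67, -0.75, -1.11, -1.01 and -1.04), while the median of all genes moved to -0.75. Ddx3y was at 4.58 to 26.6 CPM in P1 hearts and at most 0.397 CPM at 1.5 years, and the part of sex between P1 and 1.5 years was not tested. Ltbp2 in hearts was between 1.54 and 7.51 CPM and Ltbp3 between 37.2 and 82.8, with no comparison of ages past the threshold. No gene of the 10 passed from 4 to 14 weeks, where 1.61% of genes did (0.756% higher and 0.85% lower), with 2 at an unadjusted p under 0.05 (Ltbp3 and Ltbp4) and 1 by DESeq2. From 14 weeks to 1 year none passed by edgeR, by DESeq2 or at an unadjusted p under 0.05 (0.972% of genes passed, 0.389% higher and 0.583% lower).

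Each of the 10 genes was higher in fibroblasts than in whole hearts over the 5 ages, where 56.8% of the 20650 genes tested in both tissues differed (27.7% higher and 29.1% lower in fibroblasts). The difference was smallest for Tgfb1 (0.88 on the log2 scale, SE 0.11, adjusted p = 1.79e-07), between 2.27 and 3.20 for Tgfb2, Tgfb3, the 3 receptors, Ltbp1 and Ltbp3, 3.88 for Ltbp4 (SE 0.08), and largest for Ltbp2 (5.00, SE 0.21, adjusted p = 2.93e-16). All 10 held without any single sample and in every other fit. At single ages Tgfb1 was closest between the tissues at 1.5 years, where the difference of 0.55 did not pass the threshold (SE 0.25, adjusted p = 0.0953), and every other gene was higher in fibroblasts at every age. Of all genes, 32.3% differed between the tissues at P1 (13.6% higher and 18.7% lower in fibroblasts), 36.1% at 4 weeks (17.5% and 18.6%), 34.8% in 14-week mice (17.1% and 17.7%), 32.4% in 1-year mice (16.7% and 15.7%) and 38.9% at 1.5 years (21% and 17.9%).

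Did the genes change alike in the 2 tissues? For Ltbp2 and Tgfbr2 the change from P1 to 4 weeks differed between fibroblasts and hearts, 2 of 10 where 7.14% of genes did, 3.18% with a positive and 3.96% with a negative difference (interaction term in edgeR over all 27 samples). Ltbp2 rose in fibroblasts and had a negative estimate in hearts (-0.93, SE 0.57, adjusted p = 0.287), a difference of 2.84 (SE 0.55, adjusted p = 0.00198). That of Tgfbr2 was 1.04 (SE 0.26, adjusted p = 0.0132) and was lost without 4-week heart replicate 2 (0.88, adjusted p = 0.0583). With library-size scaling the interactions of Tgfbr3, Ltbp1 and Ltbp3 also passed, while the median of all genes moved from 0.17 to 0.60. The interaction of Ltbp4 (-0.62, adjusted p = 0.0992) passed with the size factors of DESeq2 (-0.80, adjusted p = 0.0279), and without P1 heart replicate 2, 4-week heart replicate 1, 14-week heart replicate 2, or 1.5-year heart replicate 1 or 3 (adjusted p between 0.0321 and 0.0493). For Tgfb1 and Tgfb3 the estimates of the interaction were 0.01 (SE 0.32) and 0.06 (SE 0.30).

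**Figure D4:**
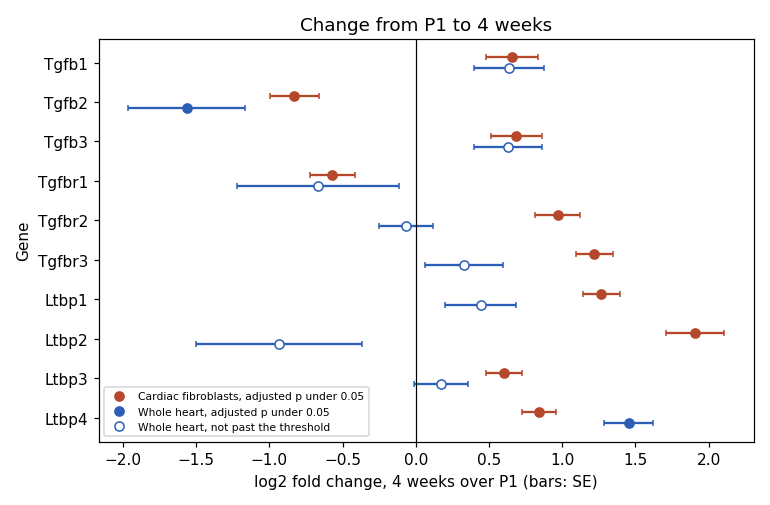
Log2 fold change of each gene from P1 to 4 weeks (x axis, bars are SE) in cardiac fibroblasts and whole hearts, filled where the adjusted p was under 0.05. The fibroblast point of Ltbp2 lies at 1.91 and its heart point at -0.93, and Tgfb2 is negative in both tissues.

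Across all 5 ages the pattern differed between the tissues for 6 of the 10 genes, the 4 binding proteins, Tgfbr2 and Tgfbr3, where 14.8% of genes did. The ligands and Tgfbr1 did not pass (adjusted p between 0.275 and 0.717). Ltbp1 gave the smallest adjusted p (9.38e-05), and its excess in fibroblasts was 0.95 at P1, 1.78 in 4-week, 2.41 in 14-week, 3.12 in 1-year and 3.09 in 1.5-year mice (SE 0.21 to 0.24). Ltbp2 moved from 2.61 at P1 to between 5.38 and 6.09 at the later ages (SE 0.40 to 0.48). For Tgfbr2 the excess was 1.53 at P1 and between 2.57 and 3.02 later (SE 0.18 to 0.20). Tgfbr3 moved from 1.57 to between 2.46 and 3.12 (SE 0.24 to 0.26). Ltbp3 went from 2.46 at P1 to 3.84 and 3.85 at 1 and 1.5 years (SE 0.18 to 0.20), whereas Ltbp4 was lowest at 4 weeks, at 3.28, and highest at 1.5 years, at 4.41 (SE 0.17 to 0.19).

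**Figure D5:**
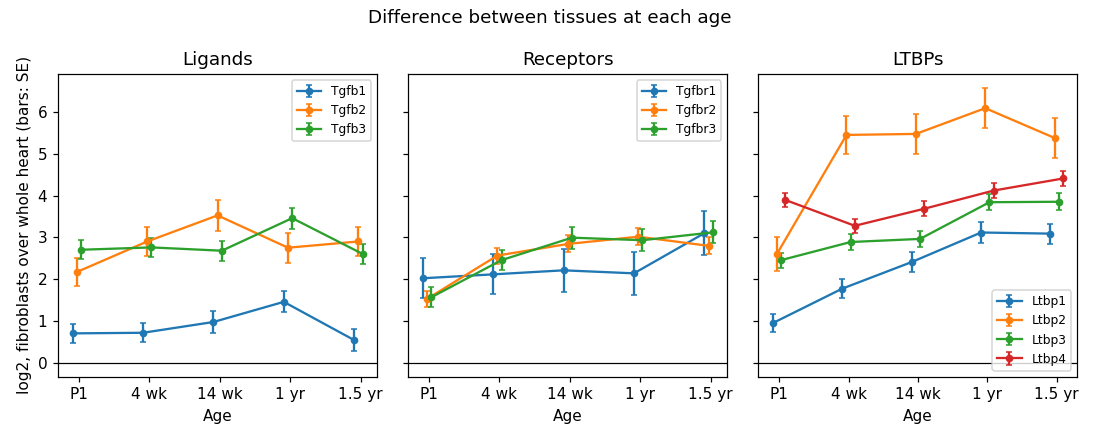
Log2 difference between cardiac fibroblasts and whole hearts (y axis, bars are SE) at each age (x axis) for the ligands, receptors and latent TGF-β binding proteins. The lines of Ltbp1 and Ltbp2 climb from 0.95 and 2.61 at P1 to 3.09 and 5.38 at 1.5 years, and that of Tgfb1 is lowest, at 0.55, at 1.5 years.

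To set the genes beside each other, levels were divided by the length of each gene's merged exons (CPM per kb). Ltbp4 was the most abundant of the 10 in fibroblasts by far, at 702 ± 54.8 CPM per kb at P1 (SD, n = 3) and 1663 ± 103 at 1.5 years (SD, n = 2). At P1 it was followed by Ltbp3 at 46.5 ± 2.42 and Tgfb3 at 42.9 ± 4.02, whose samples overlapped. Next came Tgfbr2 at 28.3 ± 5.77, Tgfbr3 at 22.2 ± 2.94 and Tgfb2 at 21.5 ± 2.30, each overlapping its neighbour. Tgfbr1, Tgfb1 and Ltbp1 formed a lower group at 14.7 ± 1.61, 12 ± 1.03 and 10.3 ± 1.41 with overlap between neighbours, and Ltbp2 was lowest at 4.10 ± 0.608. By 1.5 years Ltbp2 was at 24.9 ± 3.80, above Tgfb1 at 19.8 ± 1.56 and Tgfb2 at 15.6 ± 2.05, and the lowest gene was Tgfbr1 at 14.8 ± 2.74, which overlapped Tgfb2. Tgfb3 was the most abundant ligand per kb in fibroblasts at every age. Ltbp4 made up 83.1 to 92.4% of the summed CPM per kb of the 4 binding proteins in fibroblasts and 75.4 to 90.0% in whole hearts. In hearts at 1.5 years it stood at 60.6 ± 10.1 CPM per kb, followed by Tgfb1 at 10.5 ± 2.17, with Ltbp2 lowest at 0.462 ± 0.362 (SD, n = 3). Merged exons overstate the length of a gene whose long isoforms are little used, so the order is approximate.

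The genes whose log2 CPM over the 12 fibroblast samples was most like that of a ligand were Cd151, a tetraspanin gene, and Ensa for Tgfb1 (Pearson's r of 0.94 for both), Clca3a1 and the ubiquitin ligase gene Ube4b for Tgfb2 (0.89 for both), and Aacs and the ADP-ribosylation factor gene Arf3 for Tgfb3 (0.94 for both). These were the 2 highest of 8809 genes with a mean of at least 10 CPM for each ligand. The 12 points share their ages, libraries and depths, so the values describe likeness only.

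The rest of the pathway was described with 3 lists, of which 20 latency and activation partners, 20 co-receptors, SMADs and regulators, and 16 genes that TGF-β induces in fibroblasts were tested. Plg was the only listed gene that did not pass the filter on low counts. From P1 to 4 weeks in fibroblasts, 7 of the 20 latency partners rose and 6 fell, with a median log2 fold change of 0.06, where 9.28% of all genes rose and 6.2% fell. Among those that rose, Tgm2, a transglutaminase that crosslinks matrix, went from 45.3 ± 18.6 to 214 ± 11.7 CPM (log2 fold change 2.24, adjusted p = 3.21e-05). Nrros, which tethers latent TGF-β on macrophages and microglia, rose from 2.85 ± 1.55 to 19.5 ± 5.91 CPM (log2 fold change 2.77, adjusted p = 0.011), a call lost without 4-week replicate 3 (adjusted p = 0.0511). The macrophage markers summed to 251 to 486 CPM in the 4-week fibroblasts and 117 to 194 CPM at P1, and their part in this rise was not tested. Plau, the urokinase gene, rose from 5.99 ± 3.33 to 16.1 ± 5.64 CPM (log2 fold change 1.42, adjusted p = 0.0348) and was lost without the same sample (1.10, adjusted p = 0.121). The partners that fell most were matrix genes, Fbn2 from 980.3 ± 109.7 to 65.2 ± 21.2 CPM (log2 fold change -3.91, adjusted p = 2.97e-06) and Fn1, the fibronectin gene, from 7486 ± 1337 to 1913 ± 89.6 CPM (log2 fold change -1.97, adjusted p = 8.18e-05). The integrin gene Itgb3 fell from 93.3 ± 5.50 to 48.7 ± 16.3 CPM (log2 fold change -0.94, adjusted p = 0.0183).

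Of the 20 co-receptors, SMADs and regulators, 4 rose and 2 fell in fibroblasts from P1 to 4 weeks (9.28% and 6.2% of all genes), and the median was 0.09. Genes that restrain the pathway were on both sides. Pmepa1, which keeps SMADs from the receptor, rose from 112 ± 24.0 to 348 ± 70.2 CPM (log2 fold change 1.63, adjusted p = 0.000155), and the co-repressor gene Skil from 55.9 ± 11 to 156 ± 38.3 CPM (log2 fold change 1.48, adjusted p = 0.000149). The inhibitory SMAD gene Smad7 rose from 55.3 ± 3.57 to 80.6 ± 4.55 CPM (log2 fold change 0.54, adjusted p = 0.0451), which was lost without any single P1 or 4-week sample, or a 14-week or 1.5-year sample (adjusted p between 0.0511 and 0.123). The other inhibitory SMAD gene, Smad6, fell from 76.3 ± 9.24 to 33.4 ± 9.93 CPM (log2 fold change -1.19, adjusted p = 0.00237), and the ubiquitin ligase gene Nedd4l from 96.9 ± 12.5 to 27.9 ± 9.52 CPM (log2 fold change -1.80, adjusted p = 0.000205).

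Genes that TGF-β induces in fibroblasts split as well, with 5 of 16 higher and 6 lower at 4 weeks (9.28% and 6.2% of all genes) and a median of 0.09. Tgfbi, which encodes a secreted matrix protein, rose from 45.1 ± 6.52 to 359.7 ± 30.2 CPM (log2 fold change 3.00, adjusted p = 4.35e-08). The cartilage matrix gene Comp rose from 1.72 ± 2.92 to 32.0 ± 10.9 CPM (log2 fold change 4.19, adjusted p = 0.0157), which was lost in a fit of these 2 ages alone (adjusted p = 0.0908). Postn, the periostin gene, fell from 8189 ± 1912 to 1042 ± 136 CPM (log2 fold change -2.97, adjusted p = 2.96e-05). Angptl4 fell from 80.8 ± 48.7 to 12 ± 5.52 CPM (log2 fold change -2.75, adjusted p = 0.000604) and the metalloprotease gene Adam12 from 50.3 ± 13.1 to 10.5 ± 2.32 CPM (log2 fold change -2.26, adjusted p = 0.000481). The values are means ± SD of 3 samples at each age.

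From 14 weeks to 1.5 years in fibroblasts, 1 of 20 latency partners, 3 of 20 regulators and 1 of 16 induced genes rose by edgeR, where 1.91% of all genes rose and 0.816% fell. The genes of the response to dissociation summed to 25747 and 28551 CPM at 14 weeks and to 36632 and 38730 CPM at 1.5 years, with 3 of 8 called higher and a median of 0.67, and their part in these changes was not tested. Thbs1, the thrombospondin gene whose product can activate latent TGF-β, rose from 584 ± 26.4 to 1844 ± 165 CPM (log2 fold change 1.66, adjusted p = 0.00756). Bambi, a decoy receptor, went from 15.3 ± 3.55 to 34.5 ± 1.00 CPM (log2 fold change 1.18, adjusted p = 0.0265), Smad3 from 87.2 ± 6.38 to 183 ± 32.9 CPM (log2 fold change 1.07, adjusted p = 0.0135), and the endothelial type I receptor gene Acvrl1 from 171 ± 15.6 to 309 ± 13.2 CPM (log2 fold change 0.85, adjusted p = 0.0322). Sphk1, a sphingosine kinase gene, rose from 9.26 ± 1.76 to 41.9 ± 3.35 CPM (log2 fold change 2.18, adjusted p = 0.00802). Each of these 5 calls was lost without either 14-week sample (adjusted p between 0.0713 and 0.329). Those of Bambi and Acvrl1 were also lost without any single 1-year or 1.5-year sample (0.0511 to 0.149), and that of Smad3 without 1.5-year replicate 4 (0.107). Means ± SD are of 2 samples at each age. The endothelial markers summed to 1674 and 1367 CPM at 14 weeks and 333 and 1441 CPM at 1.5 years. Their part in these changes was not tested. In these samples Xist was at most 0.0701 CPM at 14 weeks and at least 424 CPM at 1.5 years. Sex and age therefore cannot be told apart here.

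In whole hearts 2 of 20 latency partners rose and 3 fell from P1 to 4 weeks, and 3 of 20 regulators rose, where 12.1% of all genes rose and 6.1% fell. The integrin gene Itgb6, whose product activates latent TGF-β in epithelia, went from 0.640 ± 0.546 to 22.0 ± 3.68 CPM (log2 fold change 5.10, adjusted p = 1.08e-06), and Mmp2 from 87.9 ± 9.77 to 161 ± 32.0 CPM (log2 fold change 0.88, adjusted p = 0.00108). Fbn2 fell from 54.5 ± 12.5 to 7.38 ± 3.59 CPM (log2 fold change -2.88, adjusted p = 0.0144), which was lost without 4-week replicate 2 or 3 (adjusted p = 0.0521 and 0.0635), Fn1 fell from 267 ± 96.5 to 99.6 ± 22.0 CPM (log2 fold change -1.42, adjusted p = 0.000667), and Mmp14 from 86.2 ± 10.2 to 34.9 ± 4.31 CPM (log2 fold change -1.30, adjusted p = 6.51e-05). The regulators Acvrl1, Ski and Pmepa1 rose by 1.06, 0.79 and 0.79 on the log2 scale (adjusted p = 0.00074, 0.00503 and 0.0215), that of Pmepa1 being lost without P1 replicate 1 or 4-week replicate 2 (0.095 and 0.124). Of the 16 induced genes 1 rose and 7 fell, with a median of -0.81. Postn fell from 511 ± 113 to 76.1 ± 51.0 CPM (log2 fold change -2.75, adjusted p = 7.44e-05) and Cnn1, a smooth muscle calponin gene, from 13.7 ± 6.52 to 0.995 ± 0.326 CPM (log2 fold change -3.78, adjusted p = 0.00334). Angptl4 fell by 2.80 on the log2 scale (adjusted p = 0.0376), which was lost without any single P1 or 4-week heart or 1-year replicate 1 (0.0501 to 0.133). With library-size scaling the rises of Mmp2, Acvrl1, Ski and Pmepa1 did not pass (adjusted p between 0.0744 and 0.446).

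From 14 weeks to 1.5 years in whole hearts, 3 of 20 latency partners rose and 2 fell, 1 of 20 regulators rose and 3 fell, and 2 of 16 induced genes rose, where 4.91% of all genes rose and 7.86% fell. Mmp14, a membrane metalloprotease gene, rose from 19.0 ± 0.743 to 38.4 ± 8.22 CPM (log2 fold change 1.02, adjusted p = 0.00225), Efemp2, a fibulin gene of elastic fibres, from 7.80 ± 0.670 to 17.0 ± 1.42 CPM (log2 fold change 1.12, adjusted p = 0.0139), and Lrrc32, which tethers latent TGF-β at the cell surface, from 14.9 ± 1.77 to 29.1 ± 3.07 CPM (log2 fold change 0.96, adjusted p = 0.0443). The protease gene Furin, which cleaves the TGF-β precursor, fell from 151 ± 17.5 to 79.1 ± 15 CPM (log2 fold change -0.94, adjusted p = 0.00565), and Itgb1 from 375 ± 13.1 to 243 ± 44.0 CPM (log2 fold change -0.63, adjusted p = 0.0189). Acvrl1 rose from 39.0 ± 7.36 to 65.5 ± 2.09 CPM (log2 fold change 0.75, adjusted p = 0.0158). Nedd4l, Smurf1 and Zfyve9, which encode 2 ubiquitin ligases and the SMAD anchor SARA, fell by 1.30, 0.97 and 0.88 on the log2 scale (adjusted p = 0.000754, 0.00363 and 0.0229). Tagln and Acta2, known from smooth muscle and myofibroblasts, rose by 1.44 and 0.91 (adjusted p = 0.011 and 0.0102). In the same hearts the 7 mural markers, which include the smooth muscle myosin gene Myh11, summed to 934 to 967 CPM at 14 weeks and 556 to 815 CPM at 1.5 years (0 called higher and 1 lower, median -0.31), and the 8 fibroblast markers to 722 to 837 and 1102 to 1251 CPM (4 called higher). The part of either in these changes was not tested. With the length offset Furin, Nedd4l, Zfyve9 and Acta2 no longer passed (adjusted p = 0.173, 0.214, 0.0857 and 0.0762). Without single samples the calls of Efemp2 and Acvrl1 (14-week replicate 1 or 2), Tagln and Acta2 (14-week replicate 3), Zfyve9 (14-week replicate 2 or 3 or 1.5-year replicate 3), Lrrc32 (any 14-week sample, 1-year replicate 1, or 1.5-year replicate 2 or 3) and Itgb1 (any 14-week sample or 1.5-year replicate 2 or 3) were lost, with adjusted p between 0.0508 and 0.152. Xist was at most 0.414 CPM in the 14-week hearts and at least 34.8 CPM in those of 1.5 years, so sex and age cannot be told apart here either.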

How the data were processed

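RNA-Seq was performed by the study on polyA RNA from cardiac fibroblasts and whole hearts. Raw read counts per gene were deposited by the authors in 1 table per tissue, made with STAR 2.5.3a against mm10. The annotation and the strand setting of the counting are not given in the sources used here. All columns of both tables were matched to samples by name (0 were not used). Per the study's methods, replicates came from different animals at each age. The p-values measure the spread between these samples. Every P1 and 4-week fibroblast sample held both Xist (at least 137 CPM) and Ddx3y (at least 24.8 CPM). Whether a sample pools several animals is not given in the labels.

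Counts were tested in R 4.3.3 with edgeR 4.0.16 (filterByExpr, TMM scaling, quasi-likelihood F test, Benjamini-Hochberg adjustment over all genes tested, threshold 0.05), with age as the only factor, separately for fibroblasts (18759 genes) and whole hearts (17995 genes). A joint fit of all 27 samples (20650 genes), taken as independent, gave the differences between tissues. The SE of a log2 fold change was its size divided by the square root of F. CPM was scaled by TMM within each tissue, and therefore levels of the 2 tissues are not on 1 scale. Log2 CPM used a prior count of 2. Lengths were those of merged GENCODE M21 exons, matched for 21796 of 22855 genes (95.37%).

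The 10 genes and the lists were chosen with earlier results of these data known. All 10 are named. Of each pathway list, up to 3 genes per direction that changed most past the threshold, and whose mean reached 1 CPM in either age group, are named, for P1 to 4 weeks and 14 weeks to 1.5 years. For each ligand, the 2 genes most correlated with it are named. Some listed or overlapping genes are not reported here by name.

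Alternatives were the size factors or the Wald and likelihood ratio tests of DESeq2 1.42.0, library size alone, no filter, at least 10 counts in every sample, mitochondrial genes left out, a transcript length offset, the 2 ages alone, a replicate block, and leaving out each sample. Further alternatives were chosen after seeing the data. They left out fibroblast samples 4-week replicate 3 and 1.5-year replicate 5, or heart samples 4-week replicate 2 and 1.5-year replicate 3, or fitted P1 and 4 weeks alone for the interaction. The edgeR steps were run on simulated data with a fixed spread and planted changes, as a check of the code only. Figures were drawn with Python 3.11.15, pandas 2.3.3, numpy 2.4.6 and matplotlib 3.10.9.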

Additional observations from a re-analysis of the deposited data

Results flagged for a closer look

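The change from P1 to 4 weeks differed between fibroblasts and whole hearts for 2 of the 10 genes, by the interaction term of edgeR's quasi-likelihood F test over all 27 samples. The log2 fold change of Ltbp2 was 2.84 higher in fibroblasts than in hearts, and its heart levels were low, between 1.54 and 7.51 CPM. The log2 fold change of Tgfbr2 was 1.04 higher in fibroblasts, and this call was lost without 4-week heart replicate 2 (adjusted p = 0.0583).

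The pattern over all 5 ages differed between the tissues for 6 genes by the same model. The adjusted p was 9.38e-05 for Ltbp1, 0.000739 for Ltbp3, 0.000939 for Ltbp2, 0.00176 for Tgfbr2, 0.00989 for Tgfbr3 and 0.012 for Ltbp4. The number of genes past the threshold was 6 in every fit that left out 1 sample. Dissociation and sorting applied to fibroblasts and not to whole hearts, and the genes of the response to dissociation summed to 11217 to 15665 CPM in P1 fibroblasts, 25747 to 38730 CPM in later fibroblasts and 107 to 456 CPM in hearts. The part of that response in these differences was not tested.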

How the results depend on the processing

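No called value of the 10 genes changed direction under any alternative that was run. Over the 10 genes and all comparisons, 2793 alternative values kept their direction and their side of the threshold, 81 lost the call, 29 gained it, and 127, not past the threshold in either fit, changed sign. The number of the 10 genes past the threshold changed by over 1.5 times as follows. In fibroblasts it went from 2 to 0 with a transcript length offset, and to 1 without 4-week replicate 3 and 1.5-year replicate 5, between 4 and 14 weeks. Between 14 weeks and 1 year it went from 2 to 1 with library size alone. Between 14 weeks and 1.5 years it went from 2 to 1 with library size alone, where Ltbp3 and Ltbp4 were lost and Tgfbr3 passed with a negative change, and to 0 with the 2 ages alone. In whole hearts it went from 2 to 6 with library size alone and to 4 with the DESeq2 test over all ages, from 0 to 1 between 4 and 14 weeks with library size alone, the DESeq2 test, a minimum of 10 counts or the length offset, and from 3 to 6 between P1 and 1.5 years with library size alone, where the split went from 2 higher and 1 lower to 0 higher and 6 lower. Between 14 weeks and 1.5 years it went from 1 to 0 with library size alone, the length offset, the 2 ages alone, or without 4-week replicate 2 and 1.5-year replicate 3. The interaction between P1 and 4 weeks went from 2 to 5 with library size alone. Library size alone moved the median of all genes in hearts to -0.60 between P1 and 4 weeks and -0.75 between P1 and 1.5 years. The cause was not tested.

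Leaving out 1 sample gave counts from 7 to 9 in fibroblasts over all ages, 8 to 10 between P1 and 4 weeks, 0 to 2 in each of the steps from 4 to 14 weeks, 14 weeks to 1 year and 14 weeks to 1.5 years, and 6 to 8 between P1 and 1.5 years. In hearts the ranges were 1 to 4 over all ages, 1 to 2 between P1 and 4 weeks, 0 to 1 between 4 and 14 weeks, 0 between 14 weeks and 1 year, 0 to 1 between 14 weeks and 1.5 years, and 1 to 4 between P1 and 1.5 years. The interaction gave 1 to 3.

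According to the paper, the hearts sequenced were those that gave the fibroblasts, but the labels do not link the samples. The joint fit took them as independent. Between tissues the correlations below rest on 6 pairs with different cell mixtures, so they cannot show whether same-numbered samples share a heart. Deviations of same-numbered samples correlated with a mean r of -0.004488 over 30 pairs of hearts, 0.0049157 over 3 pairs of P1 and 4-week fibroblasts, and -0.0077542 between fibroblasts and hearts. With a replicate block the count was 0 for 14 weeks to 1 year and for 14 weeks to 1.5 years in fibroblasts, 0 for 14 weeks to 1.5 years in hearts, and 1 for the interaction in P1 and 4 weeks alone. The block could not be fitted for fibroblasts over all ages, between 4 and 14 weeks or between P1 and 1.5 years, or for the mean tissue difference and the age pattern. Each fibroblast age from 14 weeks on rests on 2 samples, which limits what these steps can show.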
